A study of Mus musculus with 9 samples.

Results

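Syndecans and glypicans are the 2 families of cell surface proteins that carry heparan sulfate (HS), and the 10 mouse genes that encode them, *Sdc1* to *Sdc4* and *Gpc1* to *Gpc6*, were read in RNA from the adult male submandibular gland (SMG). They were picked by gene name out of 48709 counted genes. The authors' normalized table names 9 of the 10, and *Gpc5* was found by its Ensembl ID in the raw counts alone. The comparison was between 4 wild-type (WT) glands and 5 glands of mice that lack both *Hs3st3a1* and *Hs3st3b1* (double knockout, DKO), with 1 library per mouse. Both groups share the C57BL/6 background and the DKO mice were compared with WT littermates. Their *Hs3st3b1* allele is a knockout that carries a reporter and selection cassette, and *Hs3st3a1* was then cut in its first exon with zinc finger nucleases on that allele. Which founder line gave these 5 mice is not given in the sources used here, and both deletions are present in every tissue.

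Syndecans span the membrane, and their short cytoplasmic tails bind PDZ proteins such as syntenin. Glypicans have no such tail and are tied to the outer leaflet by a lipid anchor. HS chains grow on both kinds of core protein and are then sulfated. *Hs3st3a1* and *Hs3st3b1* encode enzymes that add the rare 3-O-sulfate to these chains, so the deletion alters the chain, and the question here was at which level the genes for the core proteins are transcribed in the gland and whether that level differed in the DKO SMG.

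The WT gland transcribed 1 of these 10 genes at a high level. Per exon length, *Sdc4* stood at 842.5 ± 104 CPM per kb (read counts scaled to the same library size, divided by exon length; SD, n = 4), 380-fold above *Gpc4*, which came next at 2.22 ± 0.194. *Sdc4* made up 99.2% ± 0.0557 of the summed level of all 10 genes in WT and 99.1% ± 0.115 in DKO (SD, n = 4 and 5). No member differed between the genotypes past the test. Of the 7 members with enough counts to be tested, 0 had an adjusted p under 0.05 by edgeR's quasi-likelihood test, where 0.629% of all 13842 tested genes did (0.166% higher and 0.462% lower in DKO). The Wald test of DESeq2 also called 0 of the 7, against 4.45% of all genes. At an unadjusted p under 0.05 either tool had 0 members. Of the 13842 tested genes, 2006 by edgeR and 2097 by DESeq2 had such an unadjusted p.

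The lead of *Sdc4* over the other syndecans is the reason its promoter is printed here beside that of *Sdc3*, the syndecan at the lowest level. RefSeq promoter windows (GRCm38.p6) were found for 7 of the 10 members. Each sequence below is the 250 bases just before the RefSeq start, 5′ to 3′ on the gene's strand, and holds no base of the gene's own exons in GENCODE M21. Capitals mark the letters TATAA and GGGCGG, the latter in either orientation. The *Sdc4* window is chr2:164443189-164443438 on the minus strand and the *Sdc3* window is chr4:130792287-130792536 on the plus strand. In GENCODE M21 *Sdc3* begins at the same base as in RefSeq. *Sdc4* has 2 GENCODE transcripts, of which 1 begins 2 bases downstream of the RefSeq start and the other 699 bases upstream of it, so that the window lies in the first intron of the latter.
Sdc4: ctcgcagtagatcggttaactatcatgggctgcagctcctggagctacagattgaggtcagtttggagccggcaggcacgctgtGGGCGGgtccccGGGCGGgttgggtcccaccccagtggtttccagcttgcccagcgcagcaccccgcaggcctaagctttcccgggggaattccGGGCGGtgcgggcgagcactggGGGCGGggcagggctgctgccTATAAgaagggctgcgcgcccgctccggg
Sdc3: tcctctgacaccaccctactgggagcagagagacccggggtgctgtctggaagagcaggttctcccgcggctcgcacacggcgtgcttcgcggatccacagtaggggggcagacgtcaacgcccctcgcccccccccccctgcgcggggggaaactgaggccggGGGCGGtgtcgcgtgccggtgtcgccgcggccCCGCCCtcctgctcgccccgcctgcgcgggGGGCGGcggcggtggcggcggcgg
The *Sdc4* window holds TATAA 1 time, beginning 29 bases before the start, and GGGCGG 4 times. The *Sdc3* window holds no TATAA and has 3 matches to GGGCGG, 1 of them reversed. *Sdc3* has 32 CpG dinucleotides in its window and *Sdc4* has 19. Over 32851 RefSeq windows of the same length, 22.8% hold TATAA in either orientation, 16.0% hold it on the gene's strand and 32.7% hold GGGCGG in either orientation, and the median number of CpG is 6. All 7 member windows hold a GGGCGG match and have between 10 and 32 CpG, but 3 of them contain bases of the gene's own GENCODE exons (*Gpc4* 250, *Sdc1* 73 and *Gpc2* 68 bases). The 4 without such bases have between 12 and 32 CpG. In either orientation, TATAA was found in 3 of the 7 (*Sdc1*, *Sdc4* and *Gpc5*). These matches describe the letters in the window only.

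The libraries held 20653492 to 37870517 counts in WT and 17053746 to 34683690 in DKO. The targeted genes matched the labels. For *Hs3st3a1*, WT 1 to WT 4 held 7, 3, 14 and 9 counts and all 5 DKO libraries held 0, where 3 counts over the group would be 0.0251 CPM. For *Hs3st3b1*, WT 1 to WT 4 held 67, 126, 216 and 125 counts and DKO 1 to DKO 5 held 19, 45, 22, 30 and 7, a log2 fold change of -2.11 ± 0.34 (SE; edgeR adjusted p = 0.0478). The cell type markers differed between the groups. The summed level of 9 myoepithelial cell (MEC) markers was 708 to 1132 CPM in WT and 278 to 637 in DKO. That of 8 granular duct markers was 29697 to 68982 and 4524 to 23269, and that of 6 acinar markers 156841 to 235036 and 238452 to 389622. These 3 sums did not overlap between the groups, but in each list some single marker did, *Mucl2* among the acinar ones. All 8 tested MEC markers were lower in DKO, 4 of them past the test (*Myh11*, *Myl9*, *Mylk* and *Tagln*), while 0 of the 8 granular duct and 0 of the 6 acinar markers passed it. *Acta2*, the most abundant MEC marker, had 365 to 564 CPM in WT and 144 to 337 in DKO, the granular duct kallikrein *Klk1b26* had 20878 to 47352 and 3370 to 16861, and the acinar *Mucl2* had 112491 to 175309 and 174468 to 285218. In 10 other lists the groups overlapped, and 1 marker there passed the test, the skeletal muscle actin *Acta1*, with a log2 fold change of -3.65 (edgeR adjusted p = 0.0385). These 5 markers were named after their values were seen. The sum of 3 parotid gland markers did not overlap between the groups either, with 24.4 to 48.4 CPM in WT and 57.4 to 8102 in DKO. Of these markers 0 passed the test, and some overlapped when taken singly. The library DKO 1 stood apart with the 8102 CPM, and the other 4 DKO libraries reached at most 92.5. The 20 most abundant genes took 52.9% to 58.7% of the counts in WT and 59.4% to 70.3% in DKO, so the scaling between libraries matters. Over all tested genes the median log2 fold change was 0.01 with TMM scaling and -0.28 with library totals alone. In bulk RNA from a gland, fewer cells of a type and less RNA per cell cannot be told apart.

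Levels of different genes are compared here as TMM-normalized CPM per kb of exon, with the union of all annotated exons in GENCODE M21 (GRCm38) as the length. In WT the order was *Sdc4*, *Gpc4*, *Sdc2* (1.80 ± 0.347), *Sdc1* (1.68 ± 0.0900), *Gpc6* (0.442 ± 0.116), *Gpc3* (0.438 ± 0.0934), *Sdc3* (0.273 ± 0.106), *Gpc1* (0.0697 ± 0.0659), *Gpc2* (0.0183 ± 0.0127) and *Gpc5* (0.00339 ± 0.00418; SD, n = 4). The 4 libraries of neighbours in this order did not overlap at 3 steps, between *Sdc4* and *Gpc4*, between *Sdc1* and *Gpc6* (3.80-fold) and between *Sdc3* and *Gpc1* (3.92-fold). At the other 6 steps the ranges overlapped. *Gpc3* was still above *Sdc3*, and *Gpc2* above *Gpc5*, in 4 of 4 WT libraries, while *Gpc4* was above *Sdc2* in 3, *Sdc2* above *Sdc1* in 2, *Gpc6* above *Gpc3* in 1 and *Gpc1* above *Gpc2* in 3. With the longest transcript as the length, *Sdc1* stood at 2.03 and above *Sdc2*. In DKO, *Sdc1* stood above *Sdc2* and *Gpc2* above *Gpc1*, and the order was otherwise that of WT.

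By this level in WT, *Sdc4* had rank 29 among the tested genes, while *Gpc4*, the next member, had rank 6120. The syndecan sum exceeded the glypican sum 266-fold ± 29.4 in WT and 238-fold ± 48.4 in DKO (SD, n = 4 and 5), and the ranges, 247 to 310 and 162 to 280, overlapped. Among the glypicans, *Gpc4* held 69.7% ± 2.61 of the summed level in WT and 74.9% ± 6.64 in DKO. Among the syndecans other than *Sdc4*, *Sdc2* held 47.8% ± 5.49 and *Sdc1* 45.0% ± 3.51 in WT, against 40.4% ± 7.84 and 53.6% ± 7.38 in DKO. Set against 10 HS core proteins outside the families, *Sdc4* remained first in WT. The hyaluronan receptor gene *Cd44*, of which some splice forms carry HS, followed at 5.90 ± 1.45, and *Sdc4* was 143-fold above it. The basement membrane proteoglycans stood lower, with *Col18a1* (the collagen XVIII chain) at 1.12 ± 0.0979, *Agrn* (agrin) at 0.702 ± 0.114 and *Hspg2* (perlecan) at 0.374 ± 0.0440 (SD, n = 4).

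**Figure D1:**
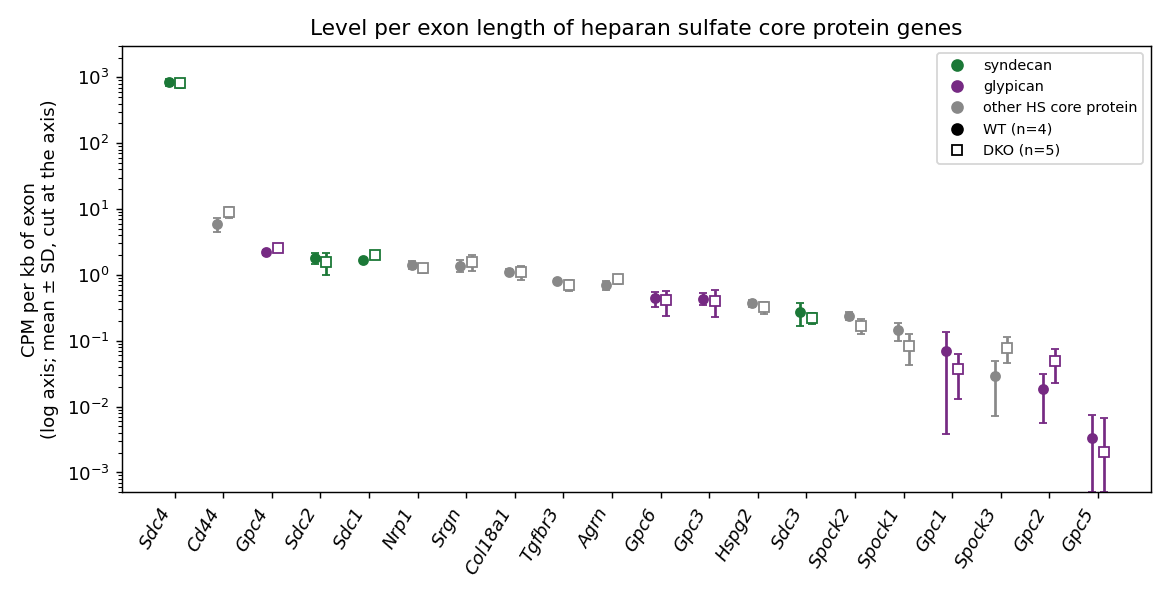
Level in CPM per kb of exon on a log axis for the 4 syndecans, 6 glypicans and 10 other HS core protein genes, ordered by WT mean. Filled circles are WT means (n = 4), open squares DKO means (n = 5), bars are SD, cut where they leave the axis. *Sdc4* lies at 842.5 in WT and every other gene under 10.

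*Sdc4* (ENSMUSG00000017009, chromosome 2, 164424247 to 164443887, minus strand) encodes the widely expressed syndecan found at focal adhesions. WT 1 to WT 4 held 54503, 59796, 83063 and 47269 counts, which are 2433, 2286, 1835 and 2029 TMM-normalized CPM. The DKO libraries had 69112, 57352, 37816, 59098 and 25578 counts, or 2025, 2359, 1733, 2336 and 1855 CPM. The groups overlapped, with WT 1 highest and DKO 3 lowest of the 9. The means were 2146 ± 266 and 2062 ± 281 CPM (SD), and the log2 fold change was -0.06 (95% interval -0.41 to 0.29; edgeR adjusted p = 0.918), which allows a fold between 0.755 and 1.22. As a share of all reads, *Sdc4* took 0.240% ± 0.0239 in WT and 0.192% ± 0.0506 in DKO, and with library totals as the sole scaling its log2 fold change was -0.33 (edgeR adjusted p = 0.311), close to the median of all genes under that scaling.

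*Sdc1* (ENSMUSG00000020592, chromosome 12, 8771323 to 8793715, plus strand) encodes the syndecan of epithelia and of plasma cells. Its counts were 146, 155, 290 and 157 in WT and 316, 171, 144, 197 and 100 in DKO. In CPM these are 6.52, 5.93, 6.41 and 6.74 in WT and 9.26, 7.03, 6.60, 7.79 and 7.25 in DKO. DKO 3 lay within the WT range, and the other 4 DKO libraries lay above all WT libraries. The means were 6.40 ± 0.343 and 7.59 ± 1.03 CPM (SD), a log2 fold change of 0.25 ± 0.13 (SE; 95% interval -0.03 to 0.53; edgeR adjusted p = 0.412).

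The exact permutation test on log2(CPM + 1), two-sided over 126 relabellings of the 9 libraries, gave *Sdc1* p = 0.0317, where 0.0159 is the smallest p it can give. That is p = 0.318 after adjustment over all tested genes, and 13.2% of those genes had an unadjusted exact p under 0.05. Scaled by library totals alone the *Sdc1* value was -0.03, so the direction turned with the scaling, against a median of -0.28 for all genes. Without DKO 1, the library with parotid markers and the highest *Sdc1*, the log2 fold change was 0.16 (edgeR adjusted p = 0.617). Plasma cell and B cell markers, 7 genes of which 2 were tested, summed to 60.5 to 155 CPM in WT and 11.0 to 194 in DKO, with *Ms4a1* at 3 counts or fewer in every library. The part of these cells in the *Sdc1* values was not tested.

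*Sdc2* (ENSMUSG00000022261, chromosome 15, 32920723 to 33034935, plus strand) encodes the syndecan best known from fibroblasts and other mesenchymal cells. WT libraries had 8.12, 6.19, 5.50 and 5.58 CPM and DKO libraries 7.0, 7.77, 2.98, 5.77 and 4.13, from 57 to 249 counts. DKO 3 and DKO 5 lay below all WT libraries and the other 3 within the WT range. The log2 fold change was -0.18 (95% interval -0.74 to 0.37; edgeR adjusted p = 0.810), and it was -0.05 without WT 1, -0.02 without DKO 3 and -0.33 without DKO 2. The 7 fibroblast markers, 6 of them with lower fitted values in DKO and 0 past the test, summed to 362 to 599 CPM in WT and 156 to 443 in DKO. Their part in the *Sdc2* values was not tested.

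*Sdc3* (ENSMUSG00000025743, chromosome 4, 130792537 to 130826319, plus strand) encodes the syndecan of the nervous system. WT 1 to WT 4 held 33, 27, 68 and 59 counts and DKO 1 to DKO 5 held 41, 39, 23, 30 and 22, which are 1.47, 1.03, 1.5 and 2.53 CPM and 1.20, 1.60, 1.05, 1.19 and 1.60 CPM. WT 4 stood above the other 8 libraries, and all DKO libraries lay within the WT range. The log2 fold change was -0.30 (95% interval -0.91 to 0.30; edgeR adjusted p = 0.694), and without WT 4 it was -0.02. Schwann cell and nerve markers, 6 genes with 4 lower in DKO and 0 past the test, summed to 18.9 to 24.3 CPM in WT and 13.5 to 19.8 in DKO, and their part in these values was not tested.

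**Figure D2:**
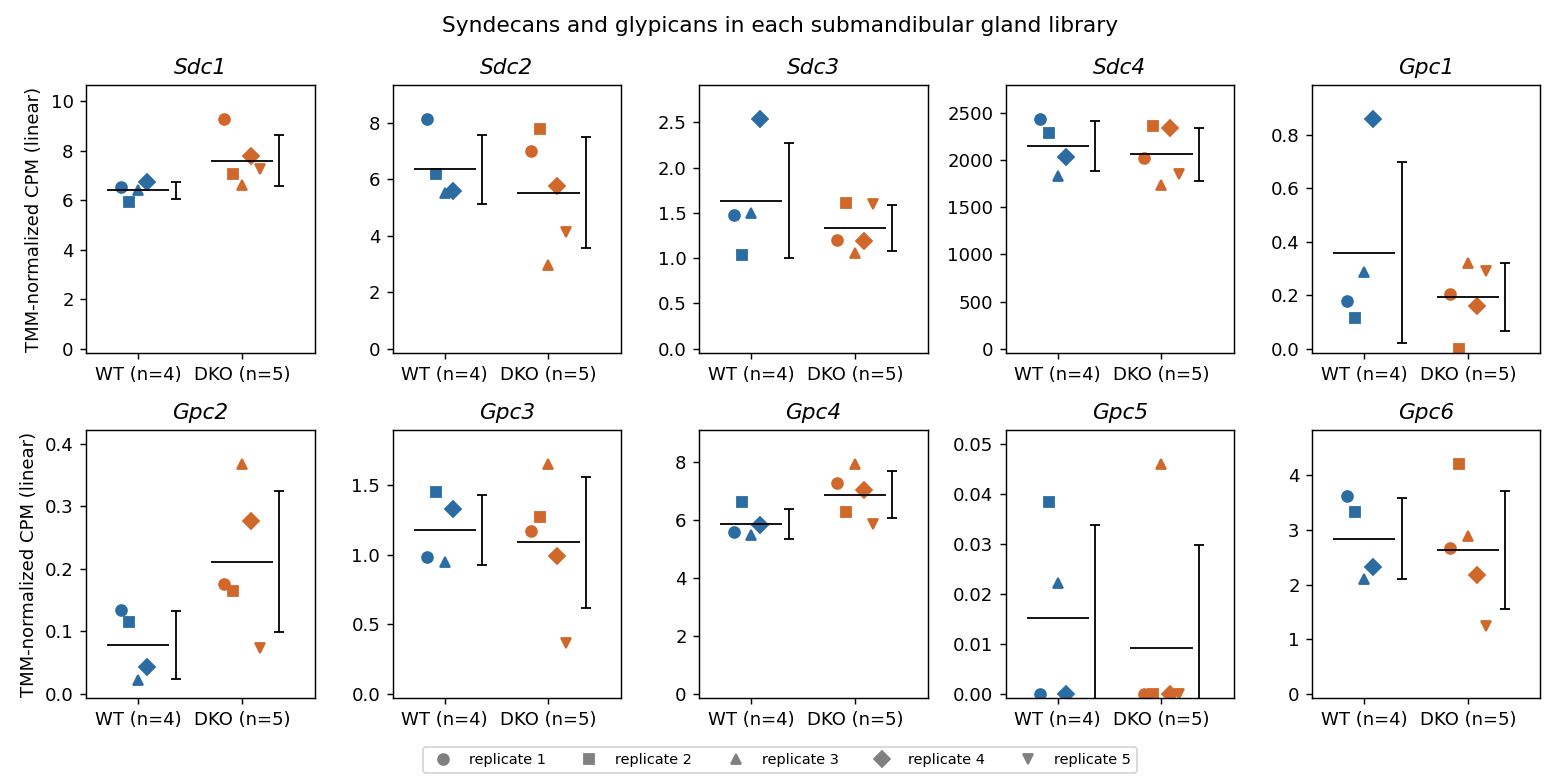
TMM-normalized CPM on a linear axis of each of the 10 members in the 4 WT (blue) and 5 DKO (orange) libraries. Marker shapes give the replicate number, horizontal lines the group means and bars the SD. The groups overlap in all 10 panels, and 4 of 5 DKO libraries lie above all WT libraries for *Sdc1* and *Gpc2*.

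*Gpc4* (ENSMUSG00000031119, chromosome X, 52053021 to 52165252, minus strand) was the leading glypican. Its product binds FGF and Wnt ligands through its HS chains. The counts were 125, 173, 248 and 136 in WT and 249, 153, 173, 178 and 81 in DKO. WT libraries had 5.58, 6.61, 5.48 and 5.84 CPM and DKO libraries 7.29, 6.29, 7.93, 7.04 and 5.88. DKO 1, DKO 3 and DKO 4 lay above all WT libraries, and DKO 2 and DKO 5 within the WT range. The means were 5.88 ± 0.514 and 6.89 ± 0.813 CPM (SD), with a log2 fold change of 0.23 ± 0.13 (SE; 95% interval -0.05 to 0.52; edgeR adjusted p = 0.460). The exact permutation p was 0.0635, two-sided. The direction of *Gpc4* turned to -0.06 with library totals alone.

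*Gpc3* (ENSMUSG00000055653, chromosome X, 52272426 to 52613950, minus strand), whose human counterpart is mutated in an overgrowth syndrome, lies beside *Gpc4* with 107 kb between them. Its reads numbered 22, 38, 43 and 31 in WT and 40, 31, 36, 25 and 5 in DKO. In CPM the WT libraries had 0.982, 1.45, 0.95 and 1.33 and the DKO libraries 1.17, 1.28, 1.65, 0.988 and 0.363. DKO 3 was highest and DKO 5, the library with the fewest reads, lowest. The log2 fold change was -0.08 (95% interval -0.82 to 0.66; edgeR adjusted p = 0.95), an interval that holds both 0.566-fold and 1.58-fold, and it was 0.11 without DKO 5. The summed MEC markers of DKO 3 (278 CPM) were the lowest of the 9 libraries and those of DKO 5 were 377 CPM, and their part in the *Gpc3* values was not tested.

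*Gpc6* (ENSMUSG00000058571, chromosome 14, 116925315 to 117976544, plus strand) encodes a glypican of mesenchyme and growing cartilage. It had 3.62, 3.33, 2.10 and 2.32 CPM in WT and 2.67, 4.20, 2.89, 2.17 and 1.23 in DKO, from 17 to 102 counts. DKO 2 lay above and DKO 5 below all WT libraries. The log2 fold change was -0.09 (95% interval -0.74 to 0.57; edgeR adjusted p = 0.935). Its neighbour *Gpc5* (ENSMUSG00000022112, chromosome 14, 115092215 to 116525179, plus strand) lies 400 kb away on the same strand and was not detected beyond the floor, with 1 read each in WT 2, WT 3 and DKO 3 and 0 in the other 6 libraries. A total of 3 counts would correspond to 0.0256 CPM over the WT and 0.0251 CPM over the DKO libraries, so both groups lay under that limit and no fold is given.

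*Gpc1* and *Gpc2* were detected but failed the low-count filter. *Gpc1* (ENSMUSG00000034220, chromosome 1, 92831645 to 92860779, plus strand), a glypican of nerve and muscle, was read 4, 3, 13 and 20 times in WT and 7, 0, 7, 4 and 4 times in DKO. The ratio of summed counts, DKO over WT and scaled by library size, was 0.540 with a 95% exact interval of 0.305 to 0.930 that covers counting error only. Of the 40 WT counts, 20 came from WT 4, and the exact permutation p over libraries was 0.492, two-sided. Of its exon bases, 18.9% overlap those of *Ankmy1* on the other strand, and without strand these reads cannot be told apart.

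*Gpc2* (ENSMUSG00000029510, chromosome 5, 138273655 to 138280005, minus strand), a glypican of developing neurons, was read 3, 3, 1 and 1 times in WT and 6, 4, 8, 7 and 1 times in DKO. DKO 5 fell within the WT range in CPM, and the other 4 DKO libraries lay above it. The ratio of summed counts was 3.19 (95% exact interval 1.40 to 8.15, counting error only). The exact permutation p over libraries was 0.0794, two-sided. In the edgeR fit without a low-count filter the adjusted p was 0.472, and *Gpc2* was the 1 member with an unadjusted p under 0.05. Of all 26386 genes in that fit, 2700 had such an unadjusted p. Since 55.6% of its exon bases are shared with the overlapping gene *Gm43720* on the same strand, these few counts are uncertain.

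The 7 tested members had 2 positive and 5 negative log2 fold changes with a median of -0.08, beside 7273 positive and 6569 negative and a median of 0.01 over all tested genes. The groups overlapped in all 10 members, as they did in most tested genes. Of the tested genes, 2.49% lay higher in all DKO than in all WT libraries and 3.51% lower. Overlap in so few members is therefore not particular to them. *Gpc1*, *Gpc2* and *Gpc5* failed the filter and are not among the tested genes behind these shares. The intervals limit how much the members can have changed in TMM-scaled bulk RNA, not per cell or within a cell type. In the edgeR fit as reported, those of *Sdc4*, *Sdc1* and *Gpc4* leave out a 1.5-fold change in either direction, while those of *Sdc2*, *Sdc3*, *Gpc3* and *Gpc6* reach to folds between 0.533 and 0.601 at the lower end. Over all fits run the limits were wider. The interval of *Sdc4* reached down to 0.585-fold with library totals alone, that of *Sdc1* up to 1.54-fold (DESeq2 without WT 4) and that of *Gpc4* up to 1.55-fold (DESeq2 without WT 2). No call on a member appeared in the fits that left out any 1 of the 9 libraries.

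**Figure D3:**
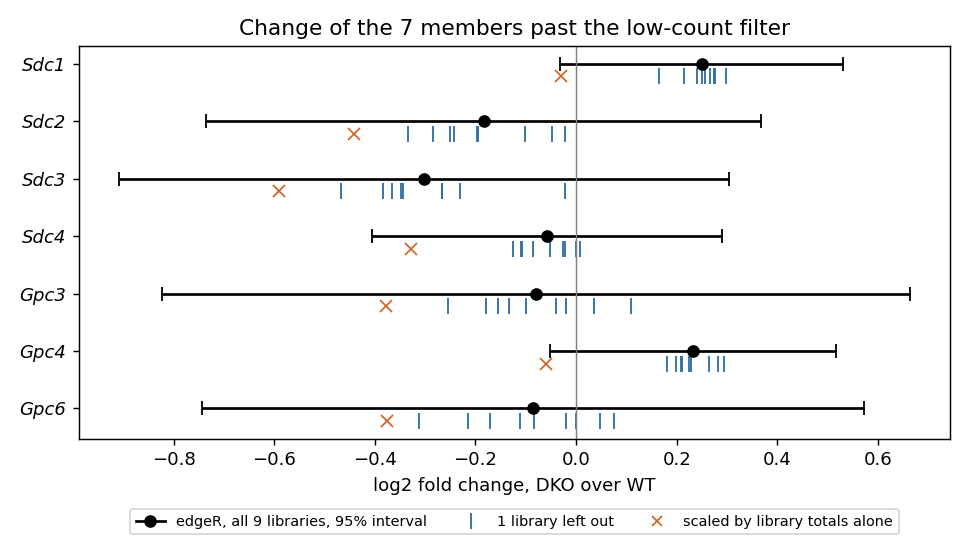
Log2 fold change of DKO over WT for the 7 members past the low-count filter. Black points and bars are the edgeR values with 95% intervals, blue ticks the values with 1 library left out and orange crosses those scaled by library totals alone. All 7 intervals include 0, and the crosses lie to the left of the points.

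The members also varied together in part. Across the 9 libraries, log2 CPM of *Sdc2* and *Sdc4* had a Pearson r of 0.816 and a Spearman rho of 0.867, with DKO 3 lowest and WT 1 highest for both genes. Without WT 1 and DKO 3, the 2 libraries farthest from the median of *Sdc4*, r was 0.646 (n = 7). *Gpc3* and *Gpc6* had r = 0.774 and rho = 0.550. For *Sdc3* and *Gpc4* the values were -0.672 and -0.617. These correlations describe libraries of both genotypes that share their depth and scaling, and they were singled out after their values were seen.

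**Figure D4:**
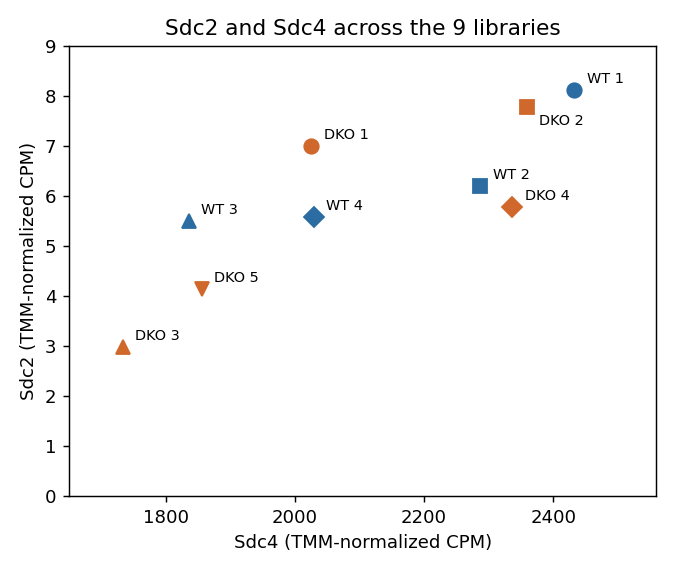
TMM-normalized CPM of *Sdc2* against that of *Sdc4* in each of the 9 libraries (WT blue, DKO orange; marker shapes give the replicate number). The horizontal axis does not start at 0. DKO 3 lies lowest and WT 1 highest in both genes.

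The genes whose pattern was most like a member's, by Pearson r of log2 CPM over the 9 libraries among 13814 other named genes, were the following 3 for each. For *Sdc1* they were *Rprd2*, *Ecpas* and *A430110C17Rik* (r from 0.907 to 0.923). For *Sdc2* they were *Herc4*, *Fbxo25* and *Plgrkt* (0.962 to 0.988), and for *Sdc3* they were *Znrf3*, *Nufip2* and *Ccdc117* (0.886 to 0.961). *Sdc4* was followed most closely by *Tceal1*, *Ggt6* and *Armcx6* (0.945 to 0.951). For *Gpc3* they were *Pop1*, *Nav1* and *Gm37768* (0.954 to 0.971), for *Gpc4* *Pde10a*, *Zfp518b* and *5430400D12Rik* (0.933 to 0.937), and for *Gpc6* *Colgalt2*, *Gm37296* and *Pak3* (0.918 to 0.958). Spearman's rho over these 21 genes ranged from 0.700 to 0.983. No member was among the 3 for another member.

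Genes that act with the core proteins were read from 4 lists. Among 10 HS core protein genes outside the families, 9 were tested and 0 passed (3 positive, 6 negative, median log2 fold change -0.17). *Cd44* had the highest value, with 40.0 ± 9.83 CPM in WT and 60.4 ± 11.2 in DKO (SD), a log2 fold change of 0.59 ± 0.18 (SE; edgeR adjusted p = 0.151), and by DESeq2 its adjusted p was 0.0491. *Spock1*, a testican gene, had the lowest value at -0.79 (edgeR adjusted p = 0.435). *Agrn*, *Hspg2* and *Col18a1* had log2 fold changes of 0.29, -0.21 and -0.01, with edgeR adjusted p-values of 0.418, 0.644 and 0.988.

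The enzymes that build and sulfate HS chains numbered 28, of which 18 were tested. The single gene past the test was the deleted *Hs3st3b1*, lower in DKO, and 13 of the 18 had positive values with a median of 0.06. *Extl1*, which encodes a chain-elongating glycosyltransferase, had the highest value at 1.12 (edgeR adjusted p = 0.363). Among 14 genes for enzymes that edit HS chains or shed core proteins, with the metalloproteinase inhibitor gene *Timp3* (log2 fold change -0.27) included in the list, 9 were tested, 0 passed and 7 had negative values (median -0.10). *Sulf1*, an extracellular 6-O-endosulfatase, stood lowest at -0.46 and the matrix metalloproteinase *Mmp2* highest at 0.16 (edgeR adjusted p = 0.666 and 0.867). The 7 cytoplasmic partners of syndecans were all tested and 0 passed, with 4 positive and 3 negative values and a median of 0.01. Here *Sdcbp2* (syntenin-2) had 0.56 and *Prkca* (protein kinase C alpha, which binds the syndecan-4 tail) -0.43 (edgeR adjusted p = 0.446 and 0.471). The counts in these 4 lists stand beside the 0.629% of all tested genes that passed.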

How the data were processed

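SMG RNA from 4 WT and 5 DKO male mice was made into unstranded Nextera XT libraries, 1 for each mouse, and read on a HiSeq2500. The authors deposited raw read counts per gene, the same counts after a filter on low rows, and TMM-normalized CPM as signal values, which gave back the deposited count within 0.01 reads in all 158058 values of 17562 genes. The submitters' processing notes name STAR 2.5.2a, DESeq2, edgeR, limma and the builds GRCh38, GRCm38 and mm10, without a role. The counting tool and annotation are not given in the sources used here, and 7 spike-in rows were left out. The members and the gene lists were chosen with earlier results of these data known.

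The unfiltered table was fitted in R 4.3.3 with edgeR 4.0.16 (TMM factors, filterByExpr with minimum count 10 and minimum total 15, legacy quasi-likelihood fit, genotype as the single term, Benjamini-Hochberg adjustment over 13842 genes, threshold 0.05). Standard errors came from the fitted change and its F statistic. DESeq2 1.42.0, which the study's methods name, and limma 3.58.1 (voom with quality weights) were alternatives, with other scalings, no filter, the filtered table, a replicate block and each library left out. Replicates are separate mice with 1 library each, so p-values set the genotype difference against the spread between libraries. That spread mixes animal, dissection and library preparation, which cannot be told apart. The exact permutation test used log2(CPM + 1), and count ratios have exact 95% intervals, which cover counting error only. The code for the fits was run on simulated counts with a common dispersion and known changes larger than those fitted for the tested members. That run checked the code and not the power to find small changes in these data. Python 3.11.15, pandas 2.3.3 and scipy 1.17.1 made the summaries.

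The genes named are the 10 members, the 3 genes most like each tested member, the most abundant marker of the MEC, granular duct and acinar lists, and, of each pathway list, the genes past the test, those with the highest and lowest log2 fold change, and *Hspg2*, *Agrn*, *Col18a1*, *Hs3st3a1* and *Hs3st3b1*. The numbers 1 to 4 are shared by WT and DKO libraries. Deviations from the group means of same-numbered libraries correlated at 0.133, 0.285, 0.0649 and 0.0107. Those of differently numbered libraries ranged from -0.214 to 0.0897, so the numbers 1 and 2 gave the highest values. The labels do not state pairs, and the edgeR fit as reported used none. The replicate block, given below, took the numbers as pairs. Whether the numbers mark shared litters or handling was not tested.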

Additional observations from a re-analysis of the deposited data

Results flagged for a closer look

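In 1 of the 20 groups of member values tested by Dixon's ratio (10 members in 2 genotypes), 1 library stood apart from the rest of its group. For *Gpc5* in DKO, DKO 3 had 1 count (0.0458 CPM) and the other 4 libraries had 0, which gives the ratio its highest value of 1. The flag rests on a single count. A lone count beside counts of 0 always gives this ratio, so the test cannot decide whether DKO 3 differs.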

How the results depend on the processing

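In every fit run, 0 members passed the adjusted threshold. At an unadjusted p under 0.05 there was 1 member without DKO 3 (*Sdc1*, by edgeR and by DESeq2) and 1 without a low-count filter (*Gpc2*), and 0 in the other fits. Without DKO 3, 1837 (edgeR) and 1868 (DESeq2) of all 13761 tested genes had such a p. Without a low-count filter, 2700 of 26386 did. The count over all tested genes depended strongly on the settings. It was 87 in the edgeR fit as reported and 357 with library totals alone. With the 20 most abundant genes left out of the scaling it was 5. DESeq2 gave 616, limma-voom with quality weights 148 and the fit without a low-count filter 347. The replicate block, whose numbers may or may not pair mice, gave a count of 0 (2024 genes at an unadjusted p under 0.05). With 1 library left out it ranged from 0 (edgeR, without WT 1, WT 3, WT 4, DKO 2 or DKO 5) to 887 (DESeq2, without DKO 4), where the DESeq2 fits and edgeR's newer fit were chosen after seeing the data. Directions that turned were near 0. With library totals alone *Sdc1* was -0.030 and *Gpc4* -0.060. With the replicate block *Gpc3* was 0.12 and *Gpc6* 0.069, and the block changed no other direction of a member. With 1 library left out, the values of both tools ranged from -0.13 to 0.012 for *Sdc4*, from -0.33 to -0.022 for *Sdc2*, from -0.25 to 0.12 for *Gpc3* and from -0.31 to 0.081 for *Gpc6*. The difference of mean log2(CPM + 1) for *Gpc2* was 0.16, smaller than its log2 count ratio of 1.67. Its CPM reached at most 0.367, below the added 1 that shrinks such a difference, so these 2 values are on unlike scales. With the longest transcript as length, the WT level was 2.03 for *Sdc1*, 0.532 for *Gpc3* and 0.685 for *Gpc6*. In the lists, DESeq2 called 1 core protein gene outside the families (*Cd44*) where edgeR called 0. The chain enzyme count of 1, *Hs3st3b1*, ranged from 0 to 1 by edgeR with 1 library left out, and it was 0 without WT 1, WT 3, WT 4, DKO 1, DKO 2, DKO 3 or DKO 5. The causes were not tested. With 4 and 5 mice, changes smaller than the 95% intervals were not detectable. *Sdc3* and *Gpc3* had under 70 counts per library. *Sdc4*, with 25578 to 83063 counts, still had an interval from -0.41 to 0.29.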
